A study of Mus musculus with 2 samples.

Results

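The report follows 10 genes of the circadian clock and its direct output, Arntl, Per2, Per3, Cry1, Ciart, Nr1d1, Nr1d2, Dbp, Tef and Wee1, which are 10 of the 32285 genes counted. They were picked by symbol from a list that had been drawn up with measured values of these same cells in view, so their levels are given as a description. The cells were sorted from the lungs of mice of 8 to 10 weeks with the genotype Lepr-CreERT2;Rosa26-tdtomato, in which a Cre driven from the leptin receptor gene and made active by tamoxifen switches on a red fluorescent protein, so that cells are chosen by present or past Lepr expression. The bleomycin group was given bleomycin, a drug that injures the lung and leaves fibrosis, and the saline group was given saline; mice of both groups carried both alleles. Live tdTomato+ cells without CD45, EpCAM and CD31 were sorted, which should leave mesenchymal cells and remove blood, epithelial and endothelial cells. Each group is 1 library. How many mice stand behind it, how long after treatment they were taken and at what hour the lungs were collected is not stated in the labels.

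The clock is a feedback loop that runs in nearly every cell. ARNTL (BMAL1) pairs with CLOCK or NPAS2 and binds E-boxes in the genes of its own repressors, the PER and CRY proteins, and of CIART. The same pair drives Nr1d1 and Nr1d2, whose proteins (REV-ERB alpha and beta) block transcription of Arntl through ROR elements, and the PAR bZIP factors Dbp and Tef, which act on D-boxes. In mouse lung and other peripheral organs Arntl, Npas2 and Cry1 transcripts peak in the part of the day opposite to Nr1d1 and Dbp. The Per genes follow somewhat later than Nr1d1 and Dbp. Wee1, a kinase that holds back entry into mitosis, is a known clock output.

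All 10 are protein-coding genes in the mm10 annotation. Arntl (ENSMUSG00000055116) lies at chr7:113207465-113314126 on the plus strand, Cry1 (ENSMUSG00000020038) at chr10:85131700-85185064 on the minus strand, Nr1d1 (ENSMUSG00000020889) at chr11:98767932-98775333 on the minus strand, and Wee1 (ENSMUSG00000031016) at chr7:110122046-110143286 on the plus strand. Promoter windows from RefSeq (GRCm38.p6, 250 bases before to 50 bases after the annotated start) were found for 8 of the 10 genes, as 10 windows. The 4 windows below carry the words of the loop named above and show the repressors' E-boxes, the D-boxes and the ROR element in the genes whose values follow. They are given 5′ to 3′ on the strand of the gene. Capitals mark every match, on either strand, to CACGTG (E-box), CACGTT (a variant E-box), TTATGTAA or TTATGCAA (D-box), and AAAGTAGGT or AAAGTGGGT (ROR element); no match overlapped another.
Arntl, chr7:113207261-113207560, plus strand: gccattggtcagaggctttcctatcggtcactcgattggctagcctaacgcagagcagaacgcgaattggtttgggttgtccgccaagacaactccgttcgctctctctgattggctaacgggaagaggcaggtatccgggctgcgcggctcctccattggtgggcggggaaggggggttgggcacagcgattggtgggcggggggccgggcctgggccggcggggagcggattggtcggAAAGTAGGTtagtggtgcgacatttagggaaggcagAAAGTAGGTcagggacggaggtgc
Ciart, chr3:95882179-95882478, minus strand: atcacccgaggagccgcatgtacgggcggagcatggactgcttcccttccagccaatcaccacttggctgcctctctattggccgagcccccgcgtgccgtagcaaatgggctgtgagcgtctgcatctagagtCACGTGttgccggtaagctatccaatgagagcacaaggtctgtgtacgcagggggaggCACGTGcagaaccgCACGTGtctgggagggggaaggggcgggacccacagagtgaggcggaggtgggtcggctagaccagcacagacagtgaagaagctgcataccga
Cry1, chr10:85185005-85185304, minus strand: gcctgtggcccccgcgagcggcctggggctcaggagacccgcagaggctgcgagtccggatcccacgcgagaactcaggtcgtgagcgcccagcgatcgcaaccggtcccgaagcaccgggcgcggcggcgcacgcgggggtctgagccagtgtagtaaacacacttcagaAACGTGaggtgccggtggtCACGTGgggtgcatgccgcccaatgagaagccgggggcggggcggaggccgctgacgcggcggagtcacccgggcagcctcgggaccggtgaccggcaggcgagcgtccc
Per3, chr4:151044616-151044915, minus strand: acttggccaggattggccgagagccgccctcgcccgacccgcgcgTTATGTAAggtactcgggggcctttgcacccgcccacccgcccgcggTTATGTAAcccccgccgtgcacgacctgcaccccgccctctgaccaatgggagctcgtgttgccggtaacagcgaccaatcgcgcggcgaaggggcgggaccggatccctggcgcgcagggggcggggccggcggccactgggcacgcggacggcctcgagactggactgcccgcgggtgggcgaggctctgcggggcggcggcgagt

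The Arntl window held AAAGTAGGT 2 times, a word present in 0.183% of the 32851 windows in the table. The Ciart window held CACGTG 3 times, which 0.088% of all windows did, and the Cry1 window held it once beside a variant E-box. CACGTG was present in 7.15% of all windows. The Per3 window held TTATGTAA 2 times, a word present in 0.938% of all windows. A variant E-box was also found in the Nr1d1 window, and an E-box in each of the 2 Tef windows. No word was found in the Dbp and Nr1d2 windows. These matches describe letters in short windows, not binding.

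The bleomycin library had 10138 barcodes and 134732429 UMIs (unique molecular identifiers, each a counted RNA molecule), and the saline library 8396 barcodes and 60937359 UMIs. After filters, 9627 and 8117 cells fell into mesenchymal clusters. There were 6 mesenchymal classes with at least 50 cells in each library, and the classes differed greatly in size: alveolar fibroblast-like cells numbered 322 in bleomycin and 5881 in saline, inflammatory fibroblast-like cells 4163 and 100, and proliferating cell-like cells 577 and 51. Adventitial fibroblast-like cells (1299 and 1296), smooth muscle-like cells (529 and 362) and an unnamed cluster led by Hhip and Aspn with contractile genes (588 and 405) were closer in number. Fibrotic fibroblast-like cells (1857 and 7) and an unnamed cluster led by Gdf15 and Mdm2 (292 and 15) could be described in bleomycin only. A cluster of 187 and 107 cells carried epithelial and some endothelial genes although the gate should remove both. The libraries shared 25 barcodes. Transcripts of other cells were present at a low level: saline smooth muscle-like cells held the alveolar fibroblast gene Inmt at 6.02% of its level in alveolar fibroblast-like cells, and bleomycin smooth muscle-like cells held Spp1 at 3.33% of its fibrotic fibroblast-like level.

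Over all mesenchymal cells, Arntl, its partner gene Npas2 and the repressor gene Cry1 were lower in bleomycin, whereas Nr1d1, which encodes the repressor of Arntl, was slightly higher. The repressor gene Per2 and the mitotic kinase gene Wee1 were lower as well. Most of these differences were under 2-fold. Levels are counts per 1000000 UMIs (CPM) summed over cells, and brackets hold exact 95% intervals that cover counting error only. With 1 library per group there is no replicate and no test: treatment, animal, cell mixture and hour of collection cannot be told apart. A gene was called by size when it reached 10 CPM in either library, differed by at least 2-fold and had an interval without 1.

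Arntl had 17.1 CPM [16.4 to 17.9] in bleomycin and 25.3 CPM [24.1 to 26.6] in saline, a ratio of bleomycin to saline of 0.677 [0.633 to 0.723]. Cry1, which encodes a repressor of the CLOCK and ARNTL pair, had 7.18 CPM [6.73 to 7.66] in bleomycin and 15.1 CPM [14.1 to 16.1] in saline, a ratio of 0.476 [0.434 to 0.522]. Per2, its partner in repression, had 2.57 CPM in bleomycin and 5.04 CPM in saline, a ratio of 0.511 [0.435 to 0.599]. For all 3 the intervals of the libraries lay apart. Per3, a PER family member with a lesser role in keeping the rhythm, had 4.41 CPM in bleomycin and 4.93 CPM in saline, and the interval of its ratio held 1 (0.894 [0.775 to 1.03]). Ciart, whose product binds and blocks the CLOCK and ARNTL pair, was counted only 51 times in each library, which is 0.391 CPM in bleomycin and 0.865 CPM in saline.

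Nr1d1 had 26.0 CPM [25.2 to 26.9] in bleomycin and 21.5 CPM [20.3 to 22.7] in saline, a ratio of 1.21 [1.14 to 1.29]. Its relative Nr1d2 lay the other way, with 24.1 CPM in bleomycin and 32.4 CPM in saline (0.742 [0.701 to 0.786]). The REV-ERB genes thus did not share a direction. Dbp had 5.17 CPM in bleomycin and 3.95 CPM in saline (1.31 [1.12 to 1.52]), while Tef, from the same PAR bZIP family, had 9.27 CPM in bleomycin and 10.7 CPM in saline (0.867 [0.786 to 0.956]). Wee1 had 17.5 CPM [16.8 to 18.3] in bleomycin and 25.2 CPM [23.9 to 26.5] in saline, a ratio of 0.696 [0.652 to 0.743].

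**Figure D1:**
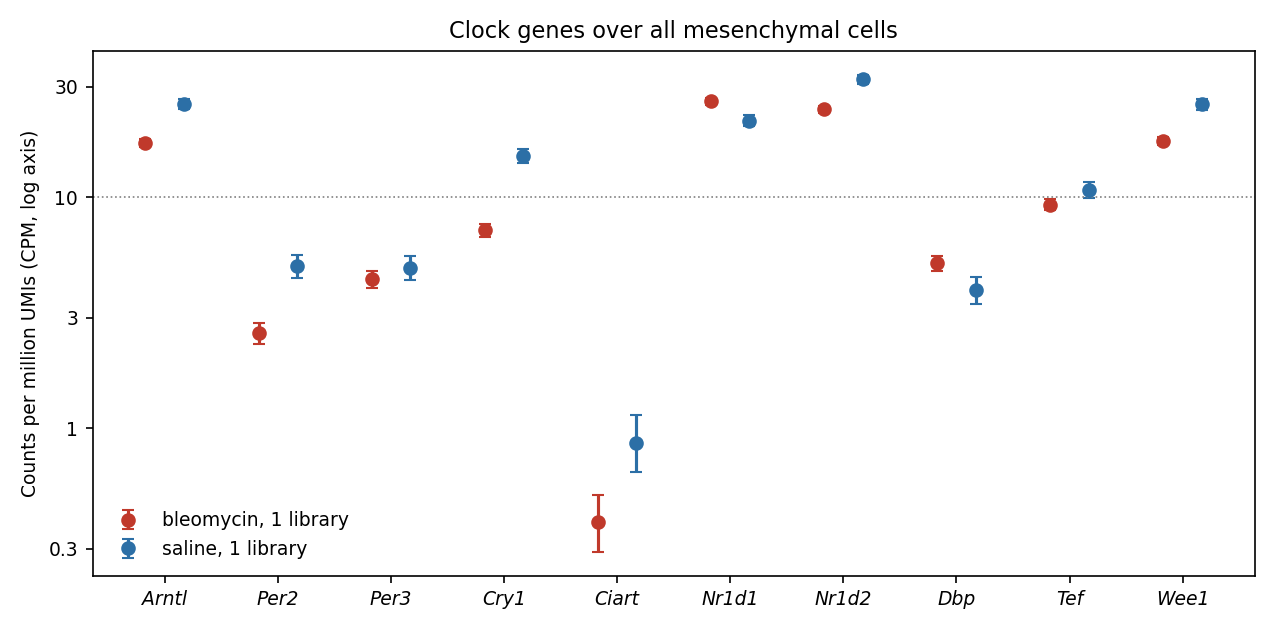
Level of each clock gene over all mesenchymal cells in CPM (log axis), bleomycin left and saline right, 1 library each; bars are 95% counting intervals and the dotted line marks 10 CPM. Nr1d1 and Dbp are the only 2 genes drawn higher in bleomycin, and Cry1, Per2 and Ciart lie farthest below saline.

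By the size rule 1 of the 10 genes, Cry1, was lower and none was higher; 4 (Dbp, Per2, Per3 and Ciart) did not reach 10 CPM in either library and could not be called. Of the 8020 genes that reached 10 CPM, 5.91% were lower and 5.56% higher by the same rule. Since the genes were listed with these values in view, nothing is read from that count. The call of Cry1 changed with the weighting of classes. With the 6 mesenchymal classes compared weighted as in saline, its ratio was 0.628. Under that weighting or an equal one Wee1, not Cry1, passed the rule. Both weightings leave out fibrotic fibroblast-like cells and the Gdf15 and Mdm2 cluster, and the part of the cell mixture was not tested. For Per2 the saline weighting gave a ratio of 1.05, in place of 0.511. The saline weighting leans on alveolar fibroblast-like cells, the largest saline class. In bleomycin that class had only 23 UMIs of Cry1 and 13 of Per2. Its Per2 ratio was 1.23 [0.642 to 2.15].

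Within cell classes, Cry1 lay below saline in each of the 6 mesenchymal classes and Nr1d1 above saline in each. Of all measured genes 11.6% had a ratio below 1 in every class and 13.9% a ratio above 1 in every class. Ciart also lay below saline in 6 of 6 classes, but on at most 10 UMIs per class in bleomycin. It was the only listed gene whose levels over these 6 classes lay apart between libraries. They were 0 to 0.575 CPM in bleomycin and 0.597 to 1.196 CPM in saline. Among measured genes 0.673% lay apart in that direction and 0.661% in the other, and Ciart was under the 10 CPM minimum. Outside the 6 classes, bleomycin fibrotic fibroblast-like cells (0.648 CPM) and the Gdf15 and Mdm2 cluster (1.40 CPM) lay above the lowest of these saline values. In bleomycin alveolar fibroblast-like cells it was not counted at all, which allows up to 1.30 CPM, more than its 0.879 CPM in saline.

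Nr1d1 stood out in adventitial fibroblast-like cells, where it had 31.9 CPM in bleomycin and 10.4 CPM in saline, a ratio of 3.06 [2.44 to 3.86]. Different clusters hold most of that class in the libraries: 1111 of the bleomycin cells were in a Pi16 cluster, and 765 of the saline cells in an Aqp1 and Adh7 cluster. Within the Pi16 cluster Nr1d1 had 30.7 CPM in bleomycin and 11.2 CPM in saline, and within the Aqp1 and Adh7 cluster 40.4 CPM and 10.0 CPM, so the difference was present in each. Proliferating cell-like cells had 19.0 CPM in bleomycin and 7.18 CPM in saline, the saline value being 6 UMIs. Smooth muscle-like cells had 46.2 CPM in bleomycin and 32.4 CPM in saline (1.43 [1.12 to 1.84]). In the other 3 classes the ratio lay between 1.08 and 1.40 and its interval held 1. When called doublets were kept, the cells were clustered anew and the ratio in alveolar fibroblast-like cells was 0.916. That class then took in a cluster led by Ces1d and Mfap4, with 316 bleomycin and 20 saline cells. At a finer clustering the ratio was 0.918 in a peribronchial fibroblast-like class, so the common direction did not hold under those choices. The part of class membership in these ratios was not tested.

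**Figure D2:**
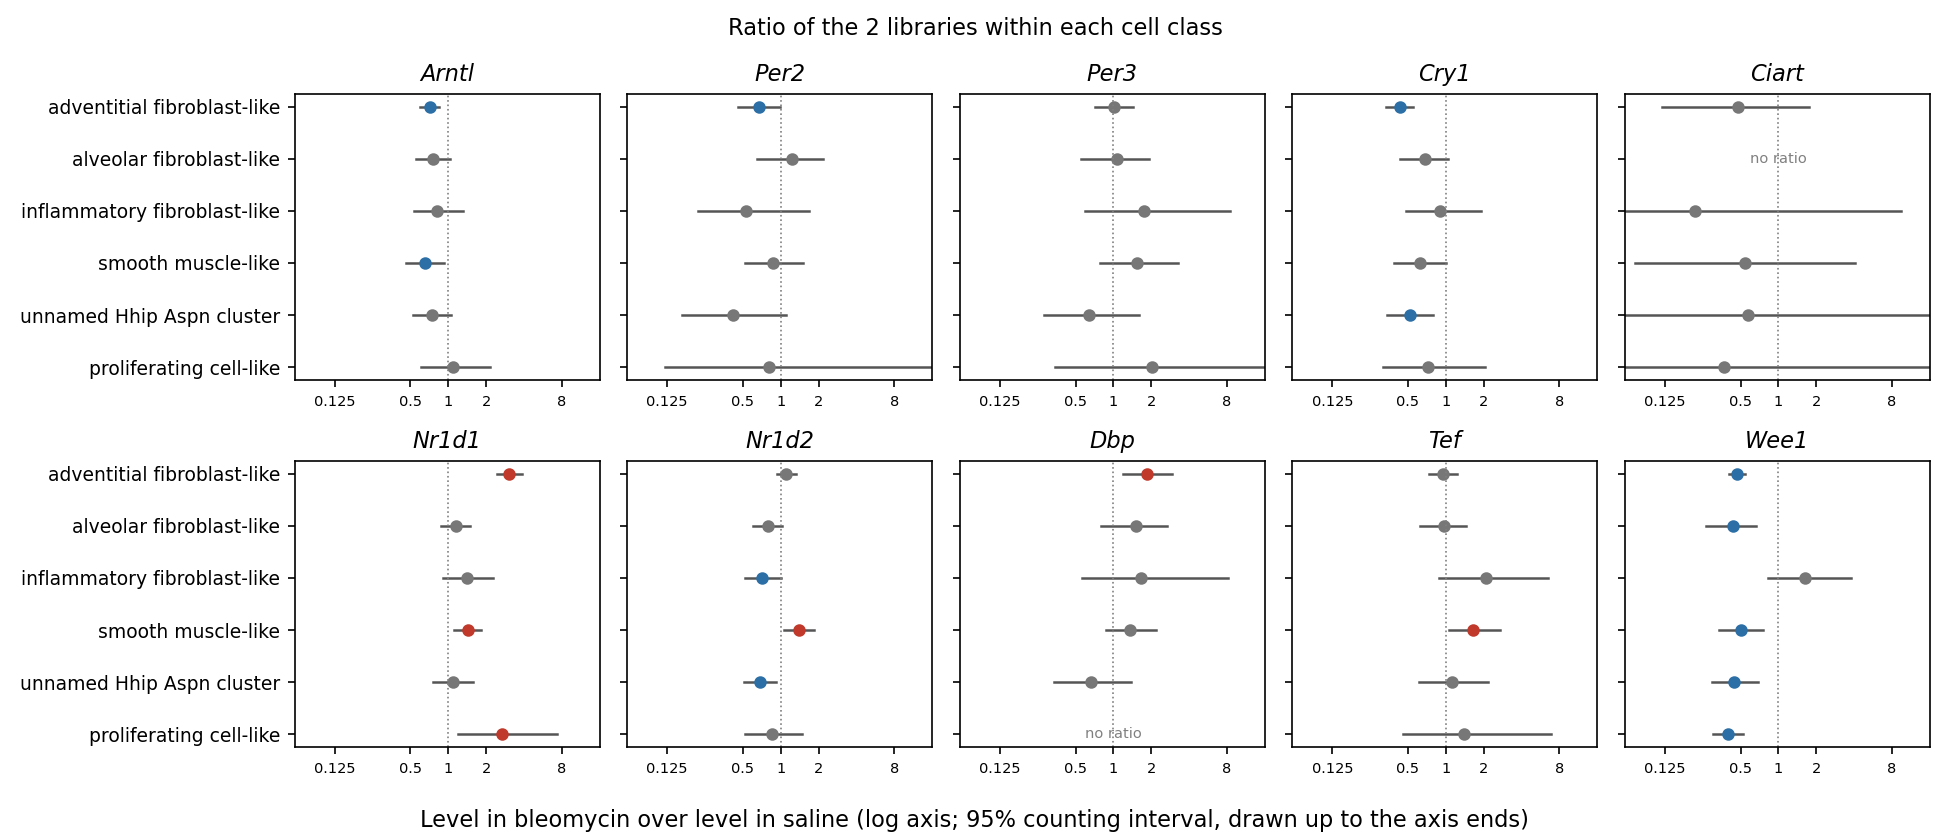
Ratio of bleomycin to saline level (log axis) for each gene within the 6 mesenchymal classes compared; lines are 95% counting intervals, red points have an interval above 1, blue points one below 1, and no ratio is drawn where a library had 0 UMIs. Cry1 points lie left of 1 in every class, Nr1d1 points right of 1, and Wee1 points left of 1 in all but inflammatory fibroblast-like cells.

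Cry1 was lower beyond counting error in adventitial fibroblast-like cells, with 8.06 CPM in bleomycin and 18.8 CPM in saline (0.430 [0.335 to 0.549]), and in the Hhip and Aspn cluster, with 11.4 CPM and 22.1 CPM (0.515 [0.339 to 0.792]). In inflammatory fibroblast-like cells, the most numerous bleomycin class, it had 7.56 CPM in bleomycin and 8.37 CPM in saline, a ratio of 0.903 whose interval held 1. Within the adventitial class the Pi16 cluster had 7.48 CPM in bleomycin and 7.61 CPM in saline, whereas the Aqp1 and Adh7 cluster had 12.4 CPM and 24.3 CPM. The ratio was 0.983 [0.616 to 1.63] in the Pi16 cluster and 0.511 [0.303 to 0.818] in the Aqp1 and Adh7 cluster; these intervals overlap, and the difference between the clusters was not tested.

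Arntl was lower in 5 of the 6 classes. It had 19.1 CPM in bleomycin and 26.9 CPM in saline adventitial fibroblast-like cells (0.709 [0.593 to 0.847]), and 14.0 CPM and 21.5 CPM in smooth muscle-like cells (0.652 [0.458 to 0.932]). These were the 2 classes whose intervals lay below 1, and inside the adventitial clusters the interval held 1, with 0.805 [0.612 to 1.07] in the Pi16 cluster and 0.838 [0.576 to 1.19] in the Aqp1 and Adh7 cluster. Alveolar fibroblast-like cells had 19.5 CPM in bleomycin and 25.6 CPM in saline, and proliferating cell-like cells 15.5 CPM and 14.4 CPM, each with an interval that held 1. Dbp lay above saline in 5 of 6 classes, of which adventitial fibroblast-like cells were the only class with an interval above 1, at 5.86 CPM in bleomycin and 3.18 CPM in saline (1.84 [1.19 to 2.92]). Inside its clusters the interval of Dbp held 1, with 1.27 [0.712 to 2.45] in the Pi16 cluster and 2.27 [0.875 to 5.53] in the Aqp1 and Adh7 cluster. The alveolar class joined clusters on either side of 1, with 3.10 [1.498 to 5.78] in the Slc7a10 cluster and 0.463 [0.0548 to 1.75] in the Tpm3-rs7 and Cxcl9 cluster. In the fifth of these classes, proliferating cell-like cells, saline had 0 UMIs of Dbp, against 2.74 CPM in bleomycin. By a floor of 3 UMIs, used here in place of the exact interval, that 0 allows up to 3.59 CPM.

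Wee1 was lower in 5 classes, all 5 with an interval below 1. Adventitial fibroblast-like cells had 21.0 CPM in bleomycin and 44.9 CPM in saline (0.469 [0.402 to 0.546]), and the ratio inside their clusters was nearer to 1, at 0.584 [0.461 to 0.744] in the Pi16 cluster and 0.616 [0.447 to 0.832] in the Aqp1 and Adh7 cluster. Proliferating cell-like cells, the highest of the 6 classes for this kinase gene in both libraries, had 30.7 CPM in bleomycin and 77.8 CPM in saline (0.395 [0.303 to 0.521]). Alveolar fibroblast-like cells had 9.08 CPM and 21.0 CPM. The direction was the other way in inflammatory fibroblast-like cells, at 11.0 CPM in bleomycin and 6.70 CPM in saline, where the saline value is 8 UMIs. Over all mesenchymal cells, 6 of 12 listed genes for entry into mitosis reached 10 CPM, and these 6 were all higher by the size rule. Of all measured genes 5.56% were higher. The summed level of the 12 was 170 CPM in bleomycin and 53.4 CPM in saline. Within classes the 12 had no common direction, as none lay above 1 in all 6 classes and none below. Their summed level in proliferating cell-like cells was 1396 CPM in bleomycin and 2128 CPM in saline. Their part in the Wee1 values was not tested.

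Of the other genes, Nr1d2 was lower with an interval below 1 in inflammatory fibroblast-like cells (23.1 CPM in bleomycin and 32.6 CPM in saline) and in the Hhip and Aspn cluster (26.3 CPM and 38.8 CPM). It was higher in smooth muscle-like cells (38.0 CPM and 27.4 CPM). Tef was higher in smooth muscle-like cells too, at 15.1 CPM in bleomycin and 9.14 CPM in saline. Per3 had no class with an interval off 1, and Per2 had 1, adventitial fibroblast-like cells, at 4.25 CPM in bleomycin and 6.37 CPM in saline. Inside the clusters of that class the Per2 ratio was 1.12 in the Pi16 cluster and 0.724 in the Aqp1 and Adh7 cluster, each with an interval that held 1. The epithelial cluster differed from the mesenchymal classes in these genes: Tef had 38.3 CPM in bleomycin and 78.2 CPM in saline there, and Nr1d2 had 27.9 CPM and 7.82 CPM, the saline value being 5 UMIs.

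Pairs of genes that peak in opposite parts of the day bear on the clock phase of a library, and a ratio of 2 genes within a library does not move with depth or scaling. The 3 pairs that follow were picked with these values in view and restate the levels above, so their sign over all cells is a description and no test of a phase difference. UMIs of different genes are not captured alike, so only the difference between libraries is read. The log2 ratio of Arntl to Nr1d1 was -0.60 in bleomycin and 0.24 in saline, a difference of -0.84 [-0.97 to -0.71]. It was lower in bleomycin in 6 of 6 classes, by between -2.11 in adventitial fibroblast-like cells and -0.55 in the Hhip and Aspn cluster, with an interval below 0 in 3. Without the adventitial class, a choice made after seeing the data, the difference over all cells was -0.68.

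For Arntl to Dbp the log2 ratio was 1.73 in bleomycin and 2.68 in saline, a difference of -0.95 [-1.19 to -0.72]. Of the 5 classes with UMIs of both genes, 4 lay below 0 and the Hhip and Aspn cluster was at 0.15 [-0.91 to 1.203]. For Cry1 to Per3 it was 0.70 in bleomycin and 1.61 in saline, a difference of -0.91 [-1.15 to -0.67]. Here 6 of 6 classes lay below 0, 2 of them with an interval below 0. The epithelial cluster had -0.35 for Arntl to Nr1d1 and 1.42 for Cry1 to Per3, with wide intervals that held 0 in each. Against Arntl, the 12 genes of a light-phase to dusk list, which all share the Arntl value, did not point one way: the difference lay below 0 for 9, with an interval below 0 for 8, and above 0 for 3. It was -1.15 for Bhlhe41, -0.71 for Per1, -0.65 for Usp2 and -0.13 for Nr1d2, and 0.59 for Hlf, 0.58 for Ciart and 0.41 for Per2. Without the hours of collection a shift of phase cannot be told apart from a change of level.

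**Figure D3:**
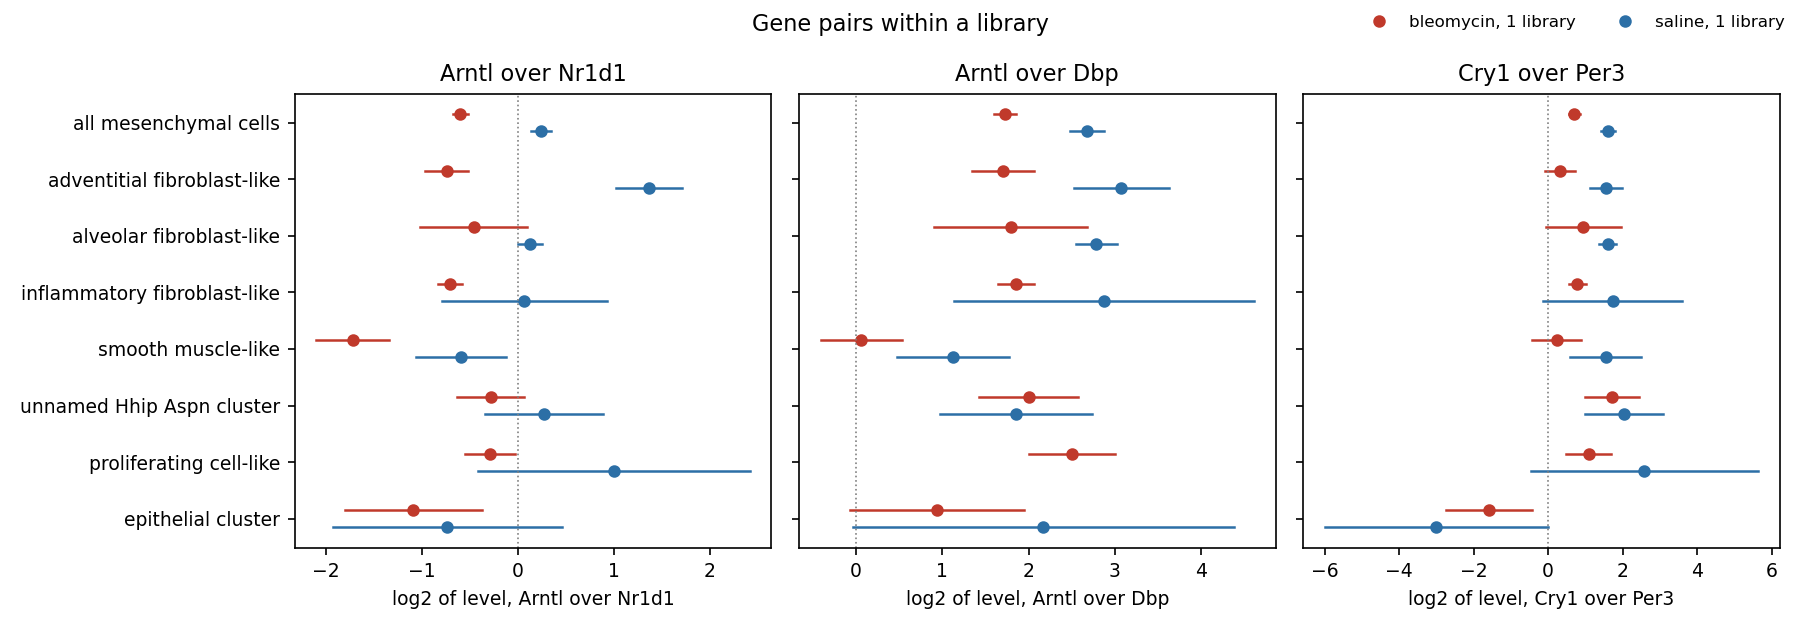
Log2 ratio of the levels of 2 clock genes within a library, over all mesenchymal cells and by cell class; bleomycin is drawn above saline, and lines are 95% counting intervals. In the first panel each bleomycin point lies left of its saline point; in the second the Hhip and Aspn cluster goes the other way and saline proliferating cell-like cells have no value.

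Shares of cells with at least 1 UMI were compared after thinning every cell to 2000 UMIs, because bleomycin cells were deeper; 153 bleomycin cells and 144 saline cells were shallower and left out. Cry1 was then seen in 1.499% of 9474 bleomycin cells and 3.19% of 7973 saline cells. Arntl was seen in 3.36% and 4.83%, and Wee1 in 3.43% and 4.79%. Nr1d1 went the other way, with 5.10% in bleomycin and 4.15% in saline. For these 4 genes the exact binomial intervals lay apart. Without thinning the shares were 8.89% and 9.87% for Cry1, 19.5% and 15.9% for Arntl, 17.004% and 14.2% for Wee1, and 22.7% and 12.5% for Nr1d1, so the direction for Arntl and Wee1 turned round with depth. Nr1d2 turned round as well, with 5.52% and 6.45% after thinning and 25.3% and 19.6% without. Clock genes are used by nearly all cells, so no class served as a background that should lack them.

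Levels also differed between cell classes within a library. Dbp, Per2 and Nr1d1 were higher in smooth muscle-like cells than in the other mesenchymal cells of both libraries. Dbp had 13.4 CPM in bleomycin smooth muscle-like cells and 4.82 CPM in the other bleomycin cells, a ratio of 2.78 [2.14 to 3.57]; in saline the values were 9.85 CPM and 3.65 CPM, a ratio of 2.70 [1.75 to 4.01]. Nr1d1 had 46.2 CPM and 25.2 CPM in bleomycin (1.83 [1.60 to 2.09]), and 32.4 CPM and 20.9 CPM in saline (1.55 [1.24 to 1.92]). Per2 had 7.67 CPM and 2.36 CPM in bleomycin (3.25 [2.28 to 4.53]), and 8.79 CPM and 4.85 CPM in saline (1.81 [1.15 to 2.74]). Of the 7 listed genes that reached 10 CPM in this comparison, 2 had an interval above 1 in both libraries, Dbp and Nr1d1. Of all genes 21.8% did, so nothing is read from that count about the listed genes as a set. Wee1 lay lower in smooth muscle-like cells of both libraries. When clusters were made without clock genes, the Dbp ratios were 2.73 and 2.70.

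Proliferating cell-like cells lay at the low end for several of the listed genes in both libraries, although the saline values rest on 51 cells. How many of all genes were low in that class was not counted, so nothing is read from this about clock genes as a set. In bleomycin Per2 had 0.962 CPM there and 2.76 CPM in the other mesenchymal cells, a ratio of 0.349 [0.184 to 0.605], and Tef had 4.96 CPM and 9.77 CPM. The Gdf15 and Mdm2 cluster of bleomycin was high in Dbp, Tef, the REV-ERB genes and Per2. The share of all genes that were high in this cluster was not counted, so these values describe single genes. The cluster had 19.9 CPM of Dbp, against 4.83 CPM in the other bleomycin mesenchymal cells (4.12 [3.08 to 5.41]). The ratio was 2.83 [1.70 to 4.44] for Per2. For Hlf, another PAR bZIP gene, it was 1.34 [0.932 to 1.86], an interval that held 1. Nr1d2 had 50.3 CPM there and 23.5 CPM in the others, and Tef 24.8 CPM and 8.92 CPM, whereas the intervals of the ratio held 1 for Arntl (15.7 CPM and 17.2 CPM), Cry1 and Wee1. Npas2 was lower there, at 0.699 CPM and 4.98 CPM. Fibrotic fibroblast-like cells had 20.3 CPM of Arntl and 24.5 CPM of Nr1d1, each within the range of the other bleomycin mesenchymal classes. Against the other bleomycin mesenchymal cells together, the ratio was 1.26 [1.15 to 1.38] for Arntl, 1.63 [1.49 to 1.77] for Wee1 and 2.12 [1.15 to 3.82] for Ciart. It was 0.620 [0.457 to 0.826] for Per2, 0.800 [0.680 to 0.938] for Cry1, 0.923 [0.851 to 0.999] for Nr1d1 and 0.911 [0.837 to 0.990] for Nr1d2. The interval held 1 for Dbp, Per3 and Tef. Mesothelial cell-like cells, which are not counted among the mesenchymal classes and numbered 117 in bleomycin and 42 in saline, had 86.1 CPM of Nr1d1 [72.8 to 101] in bleomycin, 20.9 CPM of Dbp and 37.2 CPM of Wee1. Their Nr1d1 level was above that of every mesenchymal class of bleomycin, whereas their Arntl level, 9.31 CPM [5.32 to 15.1], overlapped the intervals of several.

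**Figure D4:**
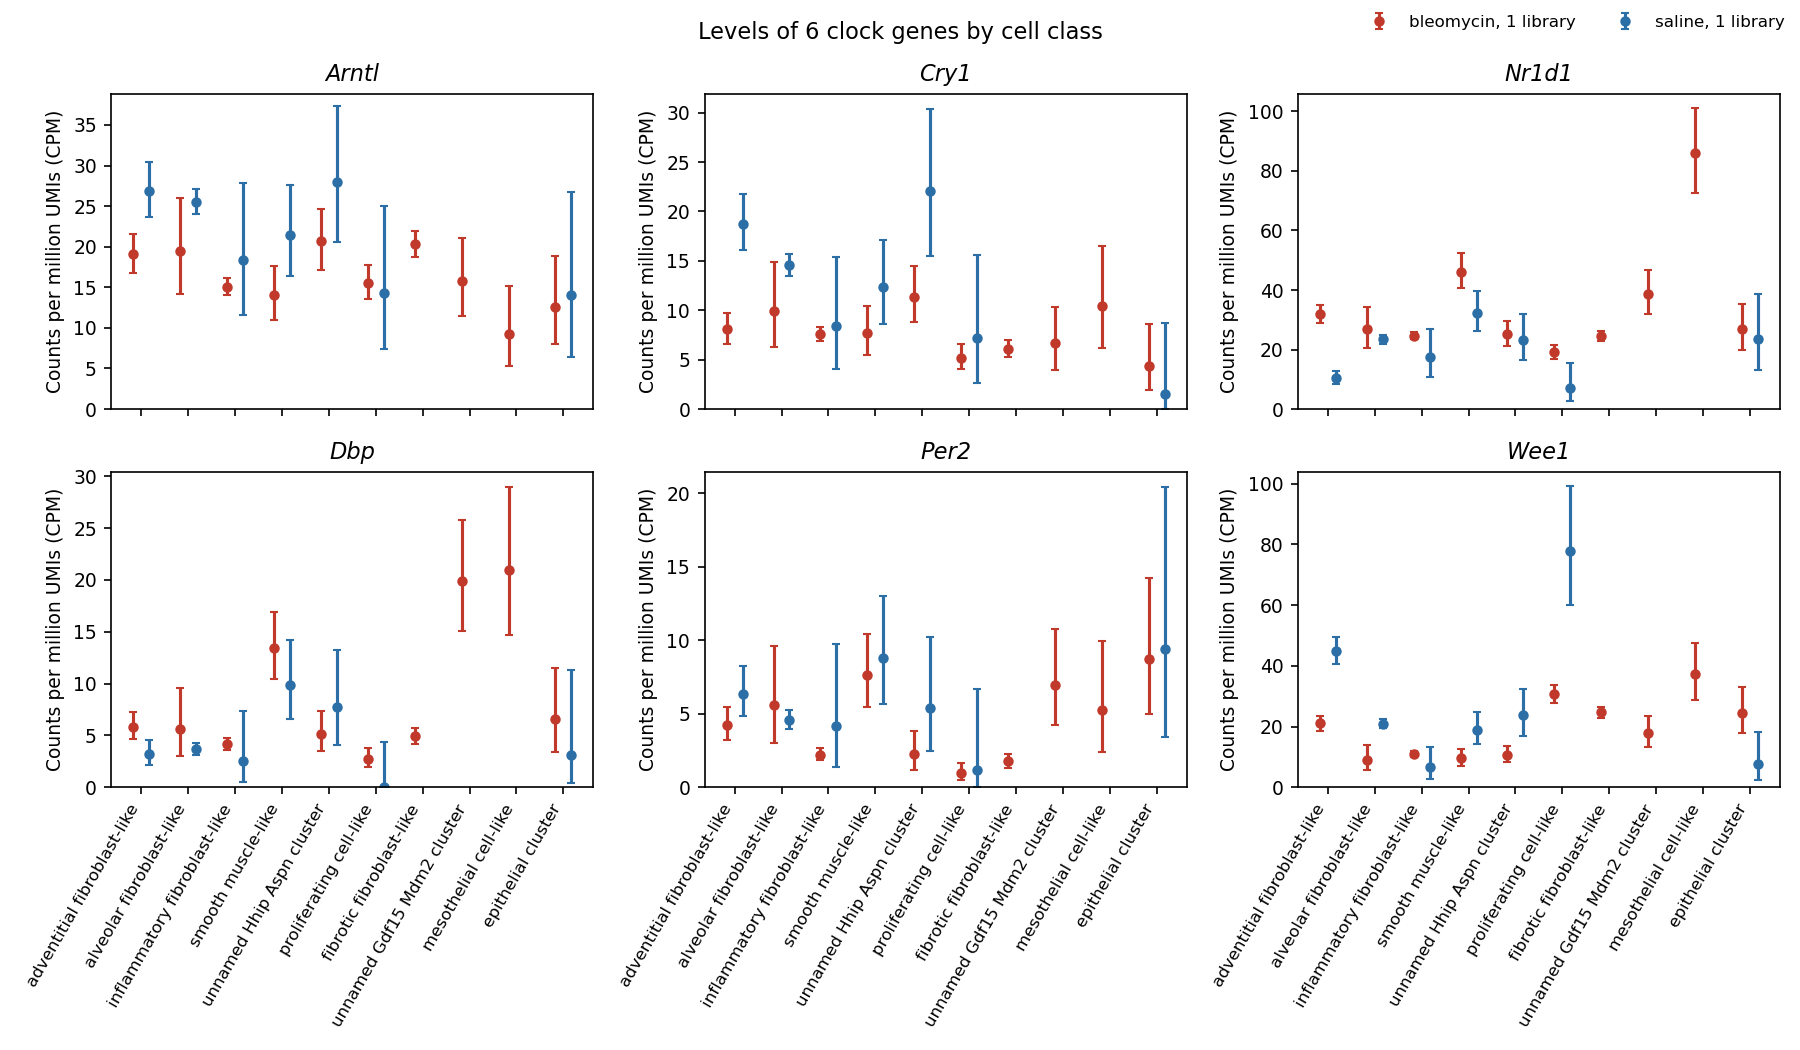
Level of 6 clock genes in CPM by cell class, bleomycin left and saline right, with 95% counting intervals; classes with under 50 saline cells have a bleomycin point only. In bleomycin Nr1d1 is highest in mesothelial cell-like cells, and Dbp is high there, in the Gdf15 and Mdm2 cluster and in smooth muscle-like cells; Wee1 is highest in saline proliferating cell-like cells.

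Across the 18 profiles of a class in a library, taken as log2 of CPM plus 10, Dbp went with Nr1d1 (Pearson r 0.887) and with Nr1d2 (0.734), Per2 with Per3 (0.722), and Arntl with Cry1 (0.577) but not with Dbp (-0.252). The profiles share 2 libraries and differ in depth, so these are descriptions. The genes most alike were then sought among the 8020 measured genes with the 10 listed genes left out. The 5 most like Arntl were Igfbp3 (r 0.886), Jmjd1c, Qpct, Homer1 and Ccdc42. Those most like Dbp were Thap11 (0.859), Sdha, Angel2, Ecpas and Cluap1, and those most like Per2 were Naa80 (0.888), Ezh1, Fam98c, Zscan26 and Nub1.

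Among 25 other clock genes 20 reached 10 CPM; none was higher by the size rule and 3 were lower, with a median log2 ratio of -0.33, against -0.04 over all measured genes. The 3 were Npas2, at 4.88 CPM in bleomycin and 11.4 CPM in saline; Hlf, a PAR bZIP gene like Dbp, at 9.47 CPM and 21.0 CPM; and Sirt1, a deacetylase gene, at 20.7 CPM and 51.7 CPM. Npas2 and Clock lay below saline in 6 of 6 classes, and Clock had 41.3 CPM in bleomycin and 65.7 CPM in saline. The repressor genes Per1 (89.3 CPM and 80.8 CPM) and Cry2 (23.7 CPM and 28.9 CPM) lay closer to each other, as did Nfil3, a repressor at D-boxes (167 CPM and 193 CPM), and Usp2, a clock-controlled protease gene (39.8 CPM and 37.4 CPM). Bhlhe41, which encodes a repressor at E-boxes, had 5.27 CPM and 3.51 CPM. Its abundant relative Bhlhe40 had 391 CPM in bleomycin and 209 CPM in saline, a ratio of 1.87 [1.83 to 1.90] that fell short of the rule, and lay above saline in 6 of 6 classes; it was named after its values were seen. Of the 5 measured night to dawn genes, Cry1 included, 2 were lower and the median was -0.67; of the 7 measured light-phase to dusk genes 1, Hlf, was lower and the median was -0.21.

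**Figure D5:**
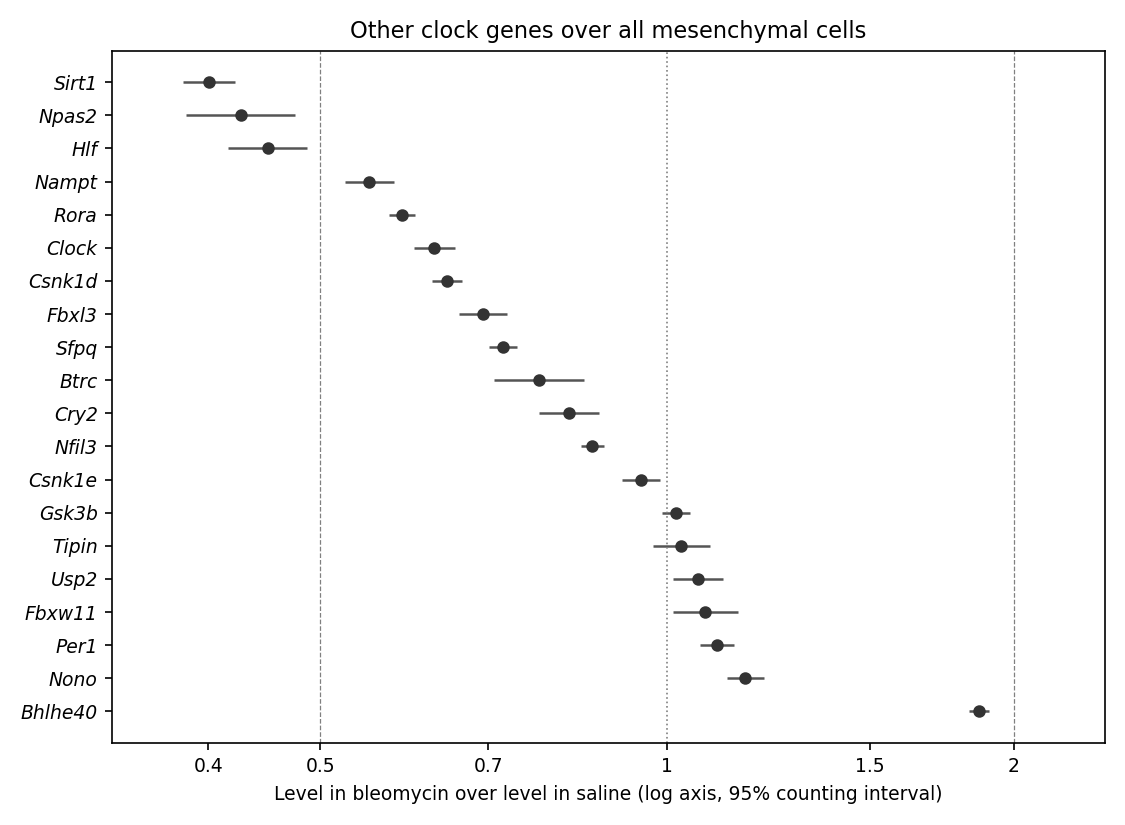
Ratio of bleomycin to saline level (log axis) for the 20 other clock genes that reached 10 CPM in either library, over all mesenchymal cells, with 95% counting intervals; dashed lines mark 2-fold. Sirt1, Npas2 and Hlf lie beyond the lower line and no gene lies beyond the upper line.

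Neighbouring programmes were counted by the same size rule, under which 5.91% of all measured genes were lower and 5.56% higher. Of 15 measured glucocorticoid response genes 5 were lower and 2 higher, among them Tsc22d3 at 46.2 CPM in bleomycin and 221 CPM in saline, Zbtb16 at 5.995 CPM and 59.0 CPM, and Fkbp5 at 36.3 CPM and 14.8 CPM. The others past the rule were Klf9, Klf15 and Pdk4, all lower, and Ddit4, which was higher. Of 19 immediate early genes 3 were lower (Jun, Egr1 and Atf3), and of 10 heat shock genes 1 was lower (Hspa1b). Of the cold-inducible genes Cirbp had 47.8 CPM in bleomycin and 86.2 CPM in saline, and Rbm3 572 CPM and 297 CPM. The libraries also differed in Tpm3-rs7, with 1.88 CPM in bleomycin and 101 CPM in saline, and in Cwc22, with 7.75 CPM and 82.2 CPM. What these differences reflect is not stated in the labels. Y-linked genes were at or near 0 and Xist was present in both. The part of each in the clock gene values was not tested.

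Several of the 10 genes overlap another gene in the annotation (GENCODE M21, mm10), and the labels do not say whether the counting used strand. Nr1d1 overlaps the end of Thra on the other strand by 1075 bases, and Thra had 77.1 CPM in bleomycin and 102 CPM in saline. Per3 lies wholly inside Camta1 on the same strand, and Camta1 had 79.7 CPM and 79.3 CPM. Dbp overlaps Sphk2 on the other strand (6.57 CPM and 6.65 CPM). The part of these overlaps in the clock gene values was not tested.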

How the data were processed

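Per the labels, single-cell libraries were made with a 3′ V3 droplet kit, and per the submitters' processing notes reads were processed with Cell Ranger 6.1.2 on mm10. The deposited values are raw UMI counts per gene and cell. Cells with at least 500 genes and at most 10% mitochondrial UMIs were kept; called doublets (0 in bleomycin, 66 in saline) were removed, and since 0 of 10138 bleomycin barcodes were marked, the caller has not worked there. Cells of both libraries were clustered together (scanpy 1.11.5; 2000 variable genes, 30 components, 15 neighbours, Leiden resolution 0.5) and named from marker lists, so names are rebuilt. Counts were summed per class and library and given as CPM, with exact conditional binomial intervals for ratios and normal ones for pairs of genes; log2 ratios have no pseudocount. Intervals and the floor of 3 UMIs cover counting error only. The scripts were tested on simulated counts, which say nothing of the spread between animals. The members and all lists were chosen with earlier results of these data known. All 10 members were named; other clock genes were named by the size rule or from a short list, other programmes by the size rule. Alternatives changed cell filters, doublets, depth, clustering, class weights, scaling and thresholds.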

Additional observations from a re-analysis of the deposited data

How the results depend on the processing

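No paired analysis was possible because each group is 1 library, and for the same reason no library could be left out. Of the 10 genes the size rule called 2 lower with no minimum level (Cry1 and Ciart), 0 from the mean of per-cell CPM, and 1 under each other setting, which was Wee1 in place of Cry1 when classes were weighted as in saline or equally; it called 0 higher under every setting. Over all genes the lower and higher calls were 474 and 446 as reported, 71 and 115 with saline class weights, 151 and 140 with equal weights, 1907 and 1754 with no minimum level, and 1221 and 983 at 1.5-fold. Genes below 1 in every class numbered 2 as reported, 4 when clusters were made without clock genes and 1 (Cry1) over 8 single clusters; genes above 1 in every class numbered 1 (Nr1d1) as reported and over the 8 single clusters, 0 with doublets kept and 0 at Leiden resolution 1. The log2 difference for Arntl to Nr1d1 was -0.98 with equal class weights and, chosen after seeing the data, -0.68 without adventitial fibroblast-like cells. The pairs Arntl to Dbp and Cry1 to Per3 kept their sign and stayed within their intervals under all settings run. Members whose shares of cells lay apart numbered 8 at 4000 UMIs and 7 without thinning, against 4 at 2000. Over 12 settings the ratio of Cry1 ranged between 0.474 and 0.628, of Arntl between 0.675 and 0.770, of Nr1d1 between 1.08 and 1.52, of Dbp between 1.24 and 1.504, and of Wee1 between 0.451 and 0.793. Per2 (0.494 to 1.05), Per3 (0.892 to 1.16) and Tef (0.860 to 1.25) crossed 1, Per2 and Tef with reweighted classes only and Per3 also in the mean of per-cell CPM. The cause of these changes was not tested. Depth limits inflammatory fibroblast-like and proliferating cell-like cells of saline, where most members have under 25 UMIs, and Ciart throughout.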
